A study of Oryctolagus cuniculus with 24 samples.

Results

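Lamina propria mononuclear cells (LPMC) from the caecum of rabbits that received ova of the pig whipworm *Trichuris suis* (TSO) and then dextran sodium sulphate (TSO DSS) were compared with LPMC of rabbits that received vehicle and then the same DSS (Veh DSS). The comparison used 6 of the 24 libraries of the series, 3 per group, chosen by their labels for cell fraction, colitis and treatment, and each library came from 1 rabbit. All were New Zealand White (NZW) rabbits, and the labels give no age. TSO DSS rabbits were given 2500 ova into the stomach at days 1, 14 and 21, and Veh DSS rabbits were given vehicle instead. Both groups drank 0.1% DSS for 5 days from day 26, and tissue was taken at day 35, so no animal in this contrast was free of DSS. By the study's methods, LPMC were what remained after the epithelium had been stripped off, the tissue digested with enzymes and the cells spun over a density gradient. The fraction was not sorted on surface markers and so can hold several cell types.

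DSS is toxic to the gut epithelium, and the damage it causes lets luminal bacteria reach the lamina propria, which draws in leukocytes. The lamina propria holds T cells, antibody-secreting plasma cells, macrophages, dendritic cells and granulocytes. Whipworm larvae hatch in the caecum and lie within its epithelium, and the host answers them typically with type 2 cytokines, eosinophils, mucus and alternatively activated macrophages. The comparison asks how RNA levels of caecal LPMC differ in colitis when ova were given beforehand.

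Genes are given by the identifiers of the deposited tables. None of the 17318 identifiers matched a symbol in the name table at hand, that of assembly mOryCun1.1 (0 matches). The study annotated its identifiers with another resource, which was not used here. No marker gene of a cell type was thus looked up. The fractions were therefore checked against each other. Untreated here means Veh Water rabbits, which were given vehicle and no DSS. Each of the 6 libraries had a higher Pearson's r with their mean LPMC library than with that of their intestinal epithelial cells (IEC). Across 11624 genes, r with the LPMC mean was 0.873 to 0.932 in TSO DSS and 0.938 to 0.966 in Veh DSS. With the IEC mean it was 0.841 to 0.896 in TSO DSS and 0.868 to 0.886 in Veh DSS. The groups did not overlap in the first and overlapped in the second. Depth was 8281577, 13831192 and 3685511 reads in TSO DSS rabbits 1, 2 and 3, and 9275645, 15770415 and 14437893 reads in Veh DSS rabbits 1, 2 and 3. TSO DSS rabbit 3 was the shallowest library, and TSO DSS rabbit 2 stood apart from its own group. Its mean r with the 3 Veh DSS libraries (0.944) was above that with the other TSO DSS libraries (0.902), whereas TSO DSS rabbits 1 and 3 were closer to their own group. By this measure the library labelled TSO DSS rabbit 2 lay nearer to the group of the other label. Its r was 0.927 and 0.877 with TSO DSS rabbits 1 and 3. With Veh DSS rabbits 1, 2 and 3 it was 0.929, 0.961 and 0.942. TSO DSS rabbit 3, the shallowest library, also had a low r with the Veh DSS libraries (0.875 to 0.890). The means thus rest in part on single libraries. In ENSOCUG00000004736, 1 of 3 genes that passed the test for ova without DSS, TSO DSS rabbit 2 had 645 scaled reads. The highest Veh DSS library had 33.7, and TSO DSS rabbit 3 had 44.7, from 15 reads. The gene was named by a rule that asks for no overlap between the groups. The place of rabbit 2 in it is therefore no test of the label. Whether the label or handling of TSO DSS rabbit 2 is at fault was not tested. Counts of genes and the medians that moved most are given with and without this rabbit.

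Among genes past a fold change of 2 and an unadjusted p under 0.05, more were lower than higher in LPMC of TSO DSS rabbits, but none of the 11265 genes tested passed the test with all 6 libraries (0 genes, or 0% of those tested, with limma at an adjusted p under 0.05 and a fold change over 2; smallest adjusted p = 0.155). Before adjustment, 727 genes (6.45%) had a p under 0.05 and a fold change over 2. Of these, 96 (0.852%) were higher and 631 (5.6%) were lower in TSO DSS. Without these thresholds the directions were nearer to even, with 5395 genes above and 5863 below 0, and with 823 genes higher and 922 lower among those whose groups did not overlap. The quasi-likelihood test of edgeR also called 0 genes after adjustment, with 109 higher and 595 lower before it. Other fits did call genes, 280 with the likelihood ratio test of edgeR, 244 with DESeq2 and 104 when the variance was estimated over all 12 LPMC libraries. The 96 and 631 genes are described below as higher and lower before adjustment, which is a weaker statement than a call.

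**Figure D1:**
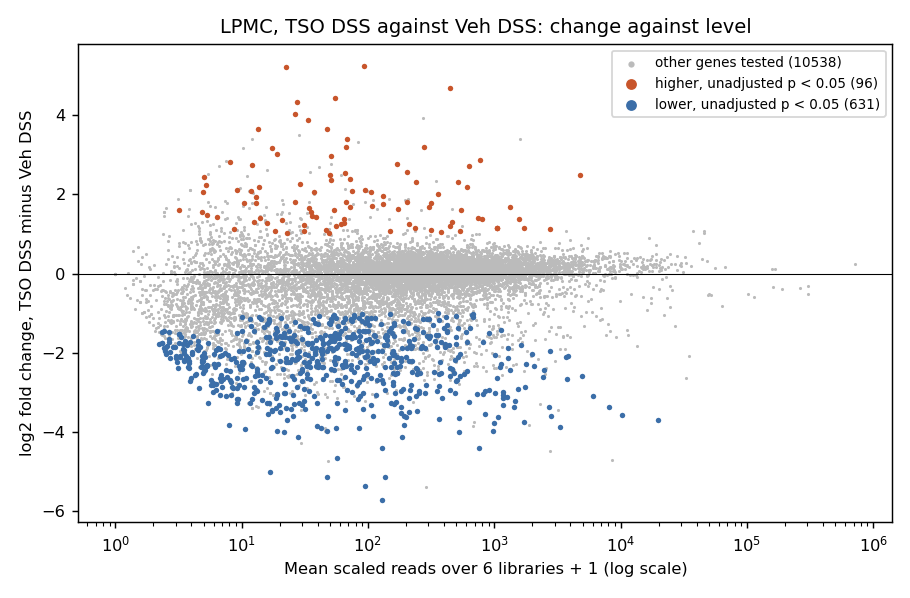
Each point is 1 of the 11265 genes tested, with its mean over the 6 libraries in scaled reads plus 1 on the x axis (log scale) and its log2 fold change, TSO DSS minus Veh DSS, on the y axis. The 631 genes lower before adjustment outnumber the 96 higher ones and lie more densely at low levels.

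Genes past the thresholds in either direction were more frequent at low levels. Over all genes ordered by mean level into 4 parts of near equal size, 304, 192, 78 and 57 were lower from the lowest part to the highest, that is 10.8%, 6.82%, 2.77% and 2.02% of the genes in each, and 40, 28, 15 and 13 were higher. The 631 had a median log2 fold change of -2.14, the lowest being -5.73. With genes of at most 3 reads in every library of a group set to that floor, the median was -1.96. In 106 of them no TSO DSS library had more than 3 reads, as in 432 of all 11265 genes tested. In 25 of them all TSO DSS libraries had 0 reads, as in 87 of all genes tested. TSO DSS rabbits 3 and 1 were the shallowest libraries, and the part of depth in these counts was not tested. A gene with 0 reads in one rabbit and at least 100 in another of the same group was rare among the lower genes (2 of 631, or 0.317%, beside 0.666% of all genes tested). The groups did not overlap in 552 of the 631, where 8.18% of all genes tested did not overlap in this direction. Against the mean of the Veh DSS libraries, the median of these genes was -2.32, -1.50 and -2.61 log2 units in TSO DSS rabbits 1, 2 and 3. The corresponding values were 0.33, -0.65 and 0.31 in Veh DSS rabbits 1, 2 and 3. TSO DSS rabbit 2 was thus the least lowered of its group, and Veh DSS rabbit 2 was the lowest of the vehicle group for 491 of the 631 genes (77.8%), as it was for 33.9% of all genes tested.

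For the 96 higher genes the median change was 1.78 on the log2 scale (range 1.03 to 5.25; 1.70 with the floor). The groups did not overlap in 83 of them, beside 7.31% of all genes tested in this direction. The median was 2.22, 1.39 and 1.86 log2 units above the Veh DSS mean in TSO DSS rabbits 1, 2 and 3. The 3 rabbits given ova therefore lay on the same side, with rabbit 2 again nearest to the vehicle group. Since the thresholds chose both sets on this contrast, these values describe the genes and are no test of them.

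Lower values before adjustment were more frequent among genes enriched in the lamina propria than among all genes. An LPMC-enriched list of 1212 of 11514 genes (10.5%) was taken from the untreated rabbits (Veh Water, LPMC over IEC by more than 2 log2 units at an adjusted p under 0.05 with limma), and none of those libraries enters the DSS contrast. In the DSS contrast, 1208 of the list were tested, 893 of them had a log2 fold change below 0, and 354 (29.3%) were lower before adjustment, against 5.6% of all genes. A further 15 (1.24%) were higher before adjustment, against 0.852% of all genes. The median of the list was -0.91 (interquartile range -1.85 to 0.03), or -0.67 with genes at the floor set to it and 18 genes at the floor in both groups left out, and the median of all genes tested was -0.02. The list supplied 56.1% of all lower genes while making up 10.7% of the genes tested.

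The 3 TSO DSS libraries had nearly the same list median, at -0.87, -0.83 and -0.88 log2 units against the Veh DSS mean for rabbits 1, 2 and 3. Veh DSS rabbits 1, 2 and 3 stood at 0.19, -0.41 and 0.28, so the groups did not overlap in this median. Rabbit 2 was close to rabbits 1 and 3 in this median, and 393 of the LPMC-enriched genes were lower before adjustment when it was left out, among 1624 genes lower in all. The excess of the list over all genes was thus smaller without rabbit 2. Without Veh DSS rabbit 3 the count was 186, among 322 lower genes in all. Thinning every library to the depth of the shallowest one gave 329 among 623. In bulk RNA of a cell fraction, fewer cells of a type and less RNA per cell cannot be told apart.

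Lower genes were more frequent in the list than outside it at each level of expression. When the 1208 genes were divided by their level in untreated LPMC into 4 parts of equal size, the medians from the lowest to the highest part were -0.93, -1.10, -1.03 and -0.34. The number lower before adjustment was 50, 89, 118 and 97 of the 302 genes in each part, that is 16.6%, 29.5%, 39.1% and 32.1%. Among genes outside the list at the same levels, 5.19%, 4.22%, 1.9% and 1.64% were lower, with medians of -0.31, -0.08, 0.02 and 0.07. In the highest part, TSO DSS rabbits 1, 2 and 3 stood at -0.35, -0.72 and -0.12 against the Veh DSS mean and Veh DSS rabbits 1, 2 and 3 at 0.20, -0.38 and 0.22. The groups overlapped there, with Veh DSS rabbit 2 below TSO DSS rabbits 1 and 3, and did not overlap in the other 3 parts.

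The summed share of reads did not follow the list median. LPMC-enriched genes together took 27.1%, 12.0% and 25.4% of nuclear reads in TSO DSS rabbits 1, 2 and 3 (21.5% ± 8.27, SD, n = 3), and 20.6%, 17.9% and 21.4% in Veh DSS rabbits 1, 2 and 3 (19.98% ± 1.88, SD, n = 3). The difference between the group means was 1.52 percentage points, and it turned to -1.26 without TSO DSS rabbit 1 and to -0.44 without TSO DSS rabbit 3, so no direction is read from it. The 20 members most abundant in untreated LPMC took 17.1%, 6.49% and 15.6% in TSO DSS rabbits and 12.3%, 11.2% and 11.8% in Veh DSS rabbits, in the same order. The other 1192 members took 9.98%, 5.52% and 9.81% against 8.32%, 6.70% and 9.67%. In both shares TSO DSS rabbits 1 and 3 were above every Veh DSS rabbit and rabbit 2 below every one, while the list median was lower in all 3 TSO DSS rabbits.

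Epithelium-enriched genes were not lower as a list. Of 277 IEC-enriched genes (2.41% of those compared in untreated rabbits), 193 were tested. Their log2 fold changes centred on a median of 0.18, and before adjustment 6 (3.11%) were higher and 0 lower, against 0.852% and 5.6% of all genes. The median was 0.04 without Veh DSS rabbit 1, 0.05 without TSO DSS rabbit 2 and 0.29 without TSO DSS rabbit 3. Their summed share of nuclear reads ranged from 0.361% to 0.514% in TSO DSS (0.429% ± 0.078, SD, n = 3) and from 0.350% to 0.411% in Veh DSS (0.380% ± 0.031, SD, n = 3), and the groups overlapped. These epithelium-enriched genes were a small part of IEC libraries as well. There their mean share was 3.20% in TSO DSS, 3.28% in Veh DSS and 3.66% in Veh Water. How much of each LPMC library came from epithelial cells was not tested. The share of reads on mitochondrial genes was 12.8%, 18.8% and 9.06% in TSO DSS rabbits 1, 2 and 3 and 16.6%, 22.9% and 16.6% in Veh DSS rabbits 1, 2 and 3. It differed by -5.15 percentage points between the group means, and the groups overlapped. A two-sided exact permutation test gave p = 0.3 (n = 3 per group). The smallest p this design allows is 0.1, so the test could not have passed 0.05 and no conclusion is drawn from it. The difference was -2.91 points without TSO DSS rabbit 3, -3.05 without Veh DSS rabbit 2 and -7.77 without TSO DSS rabbit 2. The part of the mitochondrial share in the lower genes was not tested, and with mitochondrial genes left out of the scaling 360 LPMC-enriched genes were lower before adjustment among 648 lower genes in all.

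**Figure D2:**
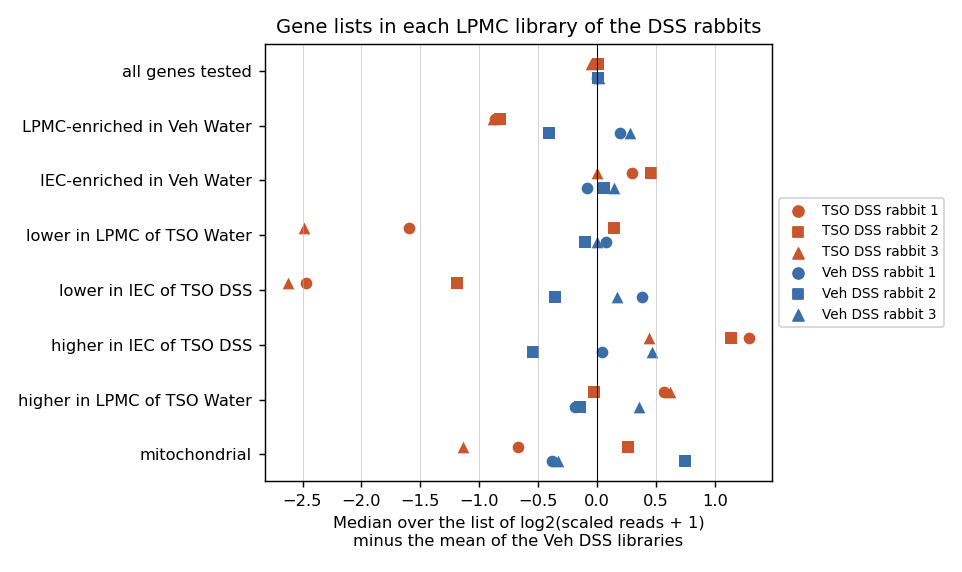
The x axis gives, for each list on the y axis, the median over its genes of log2(scaled reads + 1) minus the mean of the Veh DSS libraries, with 1 marker per rabbit. The LPMC-enriched list is lower in all 3 TSO DSS rabbits, whereas the genes lower with ova in the absence of DSS are lower in TSO DSS rabbits 1 and 3 but not in rabbit 2.

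More genes passed the test when TSO DSS rabbit 2 was left out, and those that fell were by their median not lowered in that rabbit. Without rabbit 2, limma called 664 of 11265 genes (5.89%) at an adjusted p under 0.05 and a fold change over 2, of which 589 (5.23%) fell and 75 (0.666%) rose, against 0 with all 6 libraries. This fit compares 2 TSO DSS rabbits with 3 Veh DSS rabbits. Leaving out each rabbit in turn was planned, but rabbit 2 was singled out after its values had been seen. The 589 genes had a median of -2.09 in TSO DSS rabbit 1 and -2.77 in rabbit 3 against the Veh DSS mean, and of 0.24 in rabbit 2. In 295 of them rabbit 2 was above every Veh DSS rabbit, in 147 it was within their range and in 147 below it. No share of all genes tested stands beside these counts, so they describe the 589 genes only. By these medians rabbit 2 lay near the vehicle group, which is in part set by the choice of genes, since they were called without it. Library make-up differed along the same line. The 10 most abundant nuclear genes took 20.9% and 19.3% of nuclear reads in TSO DSS rabbits 1 and 3, 12.0% in rabbit 2 and 13.8% to 15.2% in the Veh DSS rabbits. Genes with at least 1 read numbered 11229 and 10550 in TSO DSS rabbits 1 and 3, 11749 in rabbit 2 and 11695 to 12032 in the Veh DSS rabbits. The part of these differences in the calls was not tested.

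These 589 genes and the 631 genes lower before adjustment with all 6 libraries had 173 members in common, where 5.6% of all genes tested were among the 631. The fits share 5 libraries. Of the 589, 91 (15.4%) were LPMC-enriched, beside 10.7% of all genes tested. In the rabbits given ova without DSS, 587 of them were tested, with a median of -0.47 log2 units against Veh Water. Of these, 549 were below 0 and 17 lower before adjustment, where 0.922% of all genes tested in that contrast were lower and the median of all genes tested in both was -0.03. In IEC of the DSS rabbits, 583 were tested with a median of -0.05. Of the 75 genes that rose, 27 (36%) were LPMC-enriched, beside 10.7% of all genes tested. In the rabbits without DSS, 71 of the 75 were tested and 19 were higher before adjustment, where 2.41% of all genes were.

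**Figure D3:**
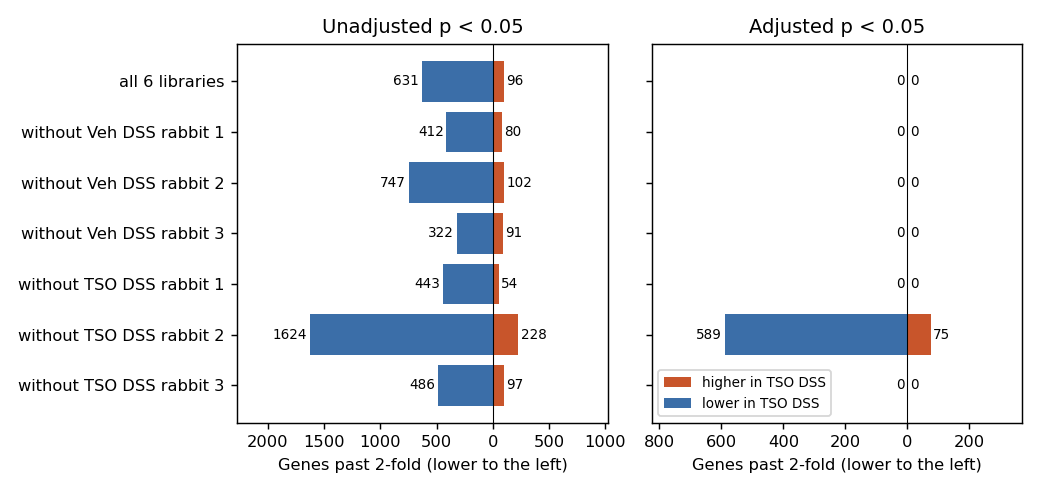
Bars give the number of genes past a fold change of 2 that were higher (right) or lower (left) in TSO DSS, at an unadjusted (left panel) and an adjusted p under 0.05 (right panel), with all 6 libraries and with each rabbit left out in turn. Leaving out TSO DSS rabbit 2 gave 589 lower and 75 higher genes after adjustment, and each other row has 0.

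The number of lower genes before adjustment also moved with the vehicle rabbits. It was 412 without Veh DSS rabbit 1 and 322 without Veh DSS rabbit 3, and it was 1624 without TSO DSS rabbit 2. The number of higher genes was 54 without TSO DSS rabbit 1 and 228 without TSO DSS rabbit 2. Lower genes outnumbered higher ones whichever rabbit was left out. On the first principal component of the 12 LPMC libraries, which held 39.3% of the variance, TSO DSS rabbits 1, 2 and 3 were at 87.3, 15.8 and 133, and Veh DSS rabbits 1, 2 and 3 at -25.4, 14.8 and -13.5. TSO DSS rabbit 2 lay next to Veh DSS rabbit 2 on this axis.

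Genes that were higher with ova in colitis were in part higher with ova alone. The LPMC of TSO Water and Veh Water rabbits, which received no DSS and share no library with the DSS contrast, were compared in the same way. There, 269 of 11175 genes (2.41%) were higher and 103 (0.922%) lower before adjustment, and 3 rose and 0 fell after it. Of the 11069 genes tested in both contrasts, 91 were higher under DSS and 253 without it, and 45 were higher in both, which is 49.5% of the first list and 17.8% of the second. One gene (1) was higher under DSS and lower without it. The log2 fold changes of both contrasts had a Pearson's r of 0.32 and a Spearman's rho of 0.33 over these 11069 genes, which do not vary independently of each other.

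The 45 shared genes had a median log2 fold change of 2.19 under DSS (range 1.03 to 5.25) and of 2.04 without DSS (range 1.03 to 7.83). Against the Veh DSS mean their median was 2.66, 1.90 and 2.13 log2 units in TSO DSS rabbits 1, 2 and 3, and 0.09, -0.84 and 0.57 in Veh DSS rabbits 1, 2 and 3. They were higher in each TSO DSS rabbit than in any Veh DSS rabbit by this median, and 42 of the 45 did not overlap between the groups, beside 7.31% of all genes in this direction, though the 45 were chosen in part on this contrast. Rabbit 2 was among the libraries on which these genes were chosen. In IEC of the same DSS rabbits the 45 genes had a median of 2.30, with 44 above 0 and 26 higher before adjustment, where 1.18% of all 11355 genes tested in IEC were higher. Of the 45, 8 were LPMC-enriched and 3 IEC-enriched. The other 51 higher genes had a median of 0.62 without DSS and of 0.55 in IEC of the DSS rabbits, where 8 of 48 tested were higher before adjustment. All 253 genes higher without DSS, a list that did not use the DSS rabbits, had a median of 0.28 under DSS. Against the Veh DSS mean it was 0.57, -0.03 and 0.62 in TSO DSS rabbits 1, 2 and 3 and -0.19, -0.15 and 0.35 in Veh DSS rabbits 1, 2 and 3. Rabbit 2 was thus within the vehicle range for this list, and the groups overlapped. The list median was 0.53 without rabbit 2.

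Genes lower under DSS and genes lower without it had 14 members in common. They made up 2.26% of the 620 genes lower under DSS and tested in both, where 0.931% of all genes tested in both were lower without DSS. They made up 13.6% of the 103 genes lower without DSS, where 5.6% of all genes were lower under DSS. Another 2 of the 620 were higher without DSS. The median of the 620 without DSS was -0.22, and 451 were below 0. The 354 LPMC-enriched genes that were lower under DSS had a median of -0.14 without DSS, in a contrast whose Veh Water libraries also served to choose the list. Taken as a list, the 103 genes lower without DSS had a median of -1.31 under DSS, with -1.60, 0.14 and -2.49 in TSO DSS rabbits 1, 2 and 3. They were thus low in rabbits 1 and 3 and at the vehicle level in rabbit 2. The list median was -1.97 without rabbit 2 and -0.71 without rabbit 3.

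**Figure D4:**
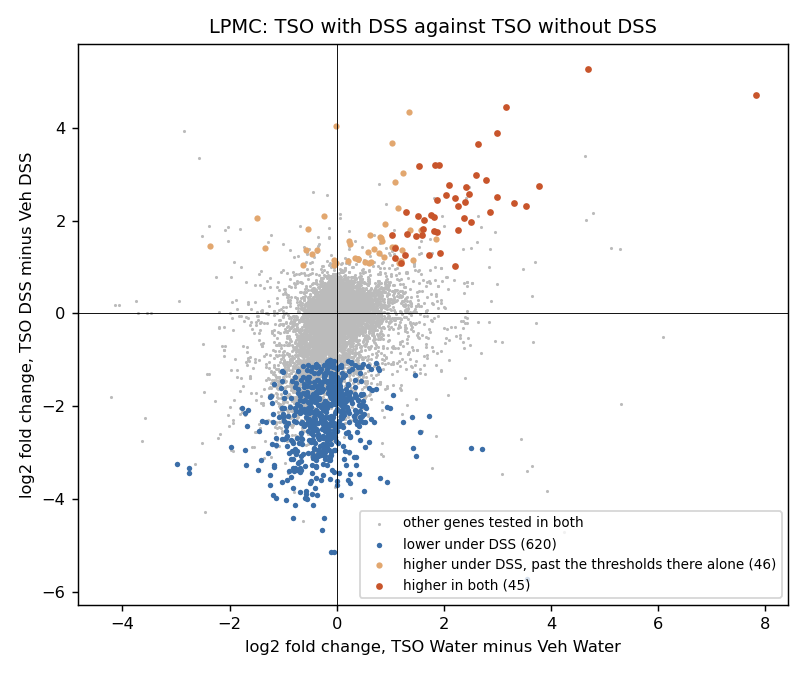
Each point is 1 of the 11069 LPMC genes tested in both contrasts, with the log2 fold change of TSO Water minus Veh Water on the x axis and of TSO DSS minus Veh DSS on the y axis. The 45 genes higher in both lie to the upper right, while the 620 genes lower under DSS scatter around a median of -0.22 on the x axis.

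Whether the effect of ova differed between rabbits with and without DSS was tested over the 12 LPMC libraries. The interaction passed an adjusted p under 0.05 in 0 of 11371 genes (0%) with limma, and before adjustment 796 genes had a p under 0.05, of which 656 had a negative and 140 a positive interaction. The LPMC effect of ova within DSS was therefore not shown to differ from that without DSS for any single gene. The count was 33 without Veh DSS rabbit 2, 21 without TSO DSS rabbit 2 and 3 without Veh DSS rabbit 1.

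The epithelial fraction of the same 6 rabbits was sequenced in other libraries, which the labels tie to the LPMC libraries by a shared animal number. In IEC, 134 of 11355 genes (1.18%) were higher and 50 (0.44%) lower in TSO DSS than in Veh DSS before adjustment, and 1 rose after it. Of the 10940 genes tested in both fractions, 34 were higher in both, which is 36.6% of the 93 higher in LPMC and 30.4% of the 112 higher in IEC. A further 16 were lower in both, which is 2.73% of the 586 lower in LPMC and 44.4% of the 36 lower in IEC. Those 36 genes had a median of -2.05 in LPMC, with -2.47, -1.19 and -2.63 in TSO DSS rabbits 1, 2 and 3, so that all 3 rabbits were below the vehicle group. The 112 genes had a median of 0.87 in LPMC, with 1.29, 1.13 and 0.44 in TSO DSS rabbits 1, 2 and 3 and 0.04, -0.54 and 0.47 in Veh DSS rabbits 1, 2 and 3. TSO DSS rabbit 3 was within the vehicle range for these, so the groups overlapped, and the median was 0.58 without rabbit 2.

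A difference between the fractions was called in 1 of 11680 genes (0.00856%), ENSOCUG00000029087 on the mitochondrial chromosome, which is named here after its values were seen. It had 0 reads in all 12 LPMC libraries. In IEC it had 230, 234 and 266 reads in TSO DSS rabbits 1, 2 and 3 and 0 reads in each Veh DSS rabbit, and 242 reads in Veh Water rabbit 2 but 0 in the other IEC libraries. The call therefore rests on IEC and not on a change in LPMC. No gene was called (0) with the rabbit as a block or with the quasi-likelihood test of edgeR.

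Of 205 genes that did not overlap between the groups, had a mean of at least 100 scaled reads and were higher (32) or lower (173) before adjustment, the pair with the largest change in each direction is given in full. ENSOCUG00000004736 on chromosome 13 (minus strand) had 1438, 841 and 15 reads in TSO DSS rabbits 1, 2 and 3 and 5, 46 and 18 reads in Veh DSS rabbits 1, 2 and 3. After scaling this was 1928, 645 and 44.7 against 5.596, 33.7 and 13.3, so that TSO DSS rabbit 3, the shallowest library, lay just above the highest vehicle rabbit and the other two far above it. The group values were 873 ± 962 and 17.5 ± 14.5 scaled reads (SD, n = 3 each). The log2 fold change was 4.70 (SE 1.42), with an adjusted p of 0.439 by limma, and it was 4.31 without rabbit 2 (adjusted p = 0.158). Without DSS the same gene was higher in TSO Water by 7.83 log2 units and passed the test there (adjusted p = 0.0198 by limma), and in IEC of the DSS rabbits the difference was 9.03 log2 units (SE 1.17; limma, adjusted p = 0.571).

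ENSOCUG00000000154 on chromosome 3 (plus strand), which was LPMC-enriched by 5.24 log2 units, had 1350, 548 and 602 reads in TSO DSS rabbits 1, 2 and 3 and 257, 59 and 364 in Veh DSS rabbits 1, 2 and 3. The scaled values were 1810, 421 and 1794 against 288, 43.2 and 268, and the groups did not overlap. Means were 1342 ± 798 and 200 ± 136 scaled reads (SD, n = 3 each), with a log2 fold change of 2.88 (SE 0.92; limma, adjusted p = 0.447). It was 3.58 without rabbit 2 (limma, adjusted p = 0.0617). Without DSS the log2 difference was 2.78 (SE 0.49; limma, adjusted p = 0.186). In IEC of the DSS rabbits it was 2.87 (SE 1.29; limma, adjusted p = 1), with 327, 142 and 17 reads in TSO DSS rabbits 1, 2 and 3 and 4, 13 and 43 reads in Veh DSS rabbits 1, 2 and 3, and the reads overlapped between the groups.

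Of the genes past that minimum level, those with the largest decreases had at most 37 reads in any TSO DSS library. ENSOCUG00000028108 on chromosome 12 (minus strand) had 4, 37 and 0 reads in TSO DSS rabbits 1, 2 and 3 and 83, 229 and 701 in Veh DSS rabbits 1, 2 and 3. Scaled, the groups stood at 11.3 ± 15.1 and 259 ± 226 (SD, n = 3 each) and did not overlap, and the log2 fold change was -5.14 (SE 1.303; limma, adjusted p = 0.396). It was -6.28 without TSO DSS rabbit 2, with an adjusted p of 0.036 by limma, but -3.90 without TSO DSS rabbit 3 and -4.43 without Veh DSS rabbit 3, where it did not pass the test. Without DSS the difference was -0.10, and the 6 Water libraries had 12 to 80 reads. In IEC of the DSS rabbits it was -2.68 (SE 0.75; limma, unadjusted p = 0.0107) and did not pass the test after adjustment. Reads there were 80, 121 and 46 in TSO DSS rabbits 1, 2 and 3 and 226, 1359 and 605 in Veh DSS rabbits 1, 2 and 3.

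ENSOCUG00000026419 on chromosome 11 (minus strand) had 4, 13 and 1 reads in TSO DSS rabbits 1, 2 and 3 and 423, 29 and 349 reads in Veh DSS rabbits 1, 2 and 3. Veh DSS rabbit 2 was close to the TSO DSS range while the other vehicle rabbits were far above it. The scaled means were 6.11 ± 3.56 and 251 ± 226 (SD, n = 3 each), with a log2 fold change of -4.42 (SE 1.17; limma, adjusted p = 0.409). It was -4.78 without TSO DSS rabbit 2 (limma, adjusted p = 0.0841). In the Water rabbits the gene had 259 to 736 reads and a difference of -0.23. In IEC of the DSS rabbits the difference was -2.38 (SE 1.55). Reads there were 7, 220 and 3 in TSO DSS rabbits 1, 2 and 3 and 422, 23 and 136 in Veh DSS rabbits 1, 2 and 3, and overlapped. The interaction of TSO with DSS did not pass the test for either of the lower genes (limma, adjusted p = 0.636 for ENSOCUG00000028108 and 0.599 for ENSOCUG00000026419).

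**Figure D5:**
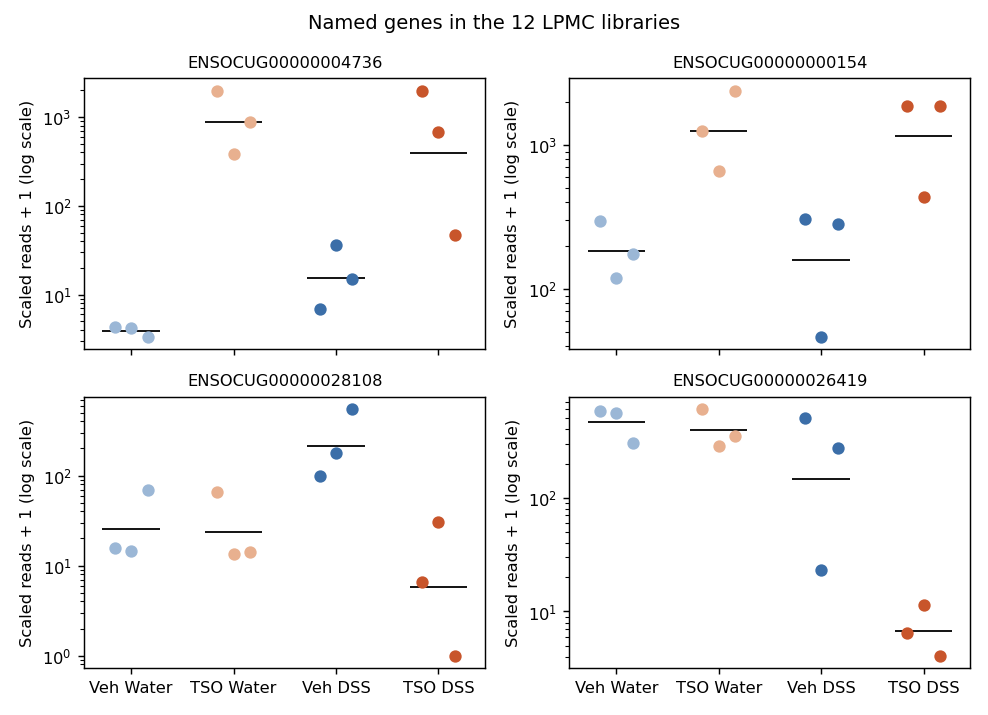
Scaled reads plus 1 (log scale) of the 4 genes in the 12 LPMC libraries, scaled together, with 1 point per rabbit in the order 1 to 3 and a line at the mean on the log scale. ENSOCUG00000004736 and ENSOCUG00000000154 are higher with TSO in both Water and DSS rabbits. ENSOCUG00000028108 is highest in Veh DSS and low in both Water groups and in TSO DSS. ENSOCUG00000026419 is high in both Water groups and low in TSO DSS.

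Genes of both kinds came from most chromosomes. Chromosome 15 had the highest share of lower genes (37 of 391 tested, 9.46%), and chromosome 19 the highest share of higher genes (16 of 699, 2.29%), beside 5.6% and 0.852% over all genes. Of the 37 genes on the mitochondrial chromosome, 21 entered the test. Their median was -0.53 on the log2 scale, and 1 was lower before adjustment. This median was -0.19 without Veh DSS rabbit 2, -0.24 without TSO DSS rabbit 3 and -0.88 without TSO DSS rabbit 2.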

How the data were processed

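RNA was from caecal LPMC and IEC at day 35, and the labels name a polyA library without strand, read single-end at 100 bp, while the study's methods give paired inserts. Without strand, a gene and its antisense partner cannot be told apart. The submitters' processing notes name FastQC and build OryCun2.0. The aligner and counter are not given in the sources used here. The authors deposited 6 tables, each of 17318 genes with a per-library signal normalized across the libraries of that table, and with log2 ratios, p-values and false discovery rates of their own comparisons, which were not used. In every library the deposited signal was whole reads times a constant factor: 100% of values under 1000 lay within 0.1 of a whole read. The factor was divided out and the 6 libraries were scaled together.

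Genes marked present by the authors in either table were tested with limma 3.58.1 (trend) on log2(TMM-scaled reads + 1), with Benjamini-Hochberg adjustment, in R 4.3.3. The TMM factors came from edgeR 4.0.16. A gene was called at an adjusted p under 0.05 and a log2 fold change beyond 1, and fold changes of low genes are understated on this scale. Named genes had a p under 0.05, a log2 fold change beyond 1, no overlap between groups and a mean of at least 100 scaled reads, and were the 2 with the largest change in each direction. Alternatives were another pseudocount (0.1), other filters and scalings, all 12 LPMC libraries, thinned reads, edgeR, DESeq2 1.42.0 and each rabbit left out. The fit was tested on simulated data. The members and lists were chosen with earlier results of these data known. Symbol-based lists and markers could not be used, since the name table (assembly mOryCun1.1) matched 0 identifiers. Floors of 3 reads cover counting error only. Tests across rabbits measure the spread between 3 animals per group, and all 6 rabbits were kept in the same room.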

Additional observations from a re-analysis of the deposited data

Results flagged for a closer look

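The effect of TSO within DSS differed between LPMC and IEC for ENSOCUG00000029087, on the mitochondrial chromosome, with an interaction of -7.70 log2 units (SE 0.54; limma, adjusted p = 0.00046). The call was lost with the rabbit as a block and with the quasi-likelihood test of edgeR, each of which called 0 genes. All 12 LPMC libraries had 0 reads. Reads were present in the 3 IEC libraries of TSO DSS rabbits and in Veh Water rabbit 2, between 230 and 266, and in no other IEC library.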

How the results depend on the processing

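With all 6 libraries, limma called 0 genes. The count was also 0 with a pseudocount of 0.1, stricter filtering, library size scaling, no mitochondrial genes, thinned reads, robust variances and the quasi-likelihood test. It was 7 without a filter on low genes, 104 with the variance of all 12 LPMC libraries, 280 with edgeR's likelihood ratio test, 244 with DESeq2 (adjusted p was NA for 709 genes), 727 without adjustment, and 0 to 664 with each rabbit left out. Higher genes before adjustment were 150 by the likelihood ratio test and 54 to 228 with each rabbit left out. Lower genes were 1025 with 12 libraries and 322 to 1624 with each rabbit left out. LPMC-enriched lower genes, counted under every alternative after seeing the data, were 186 to 426 with each rabbit left out. Genes higher with ova in both contrasts, also added after seeing the data, were 32 to 56. The likelihood ratio test and DESeq2 called all 4 named genes. The cause of these shifts was not tested.

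The interaction of TSO with DSS was called in 2 genes with a pseudocount of 0.1, 4 without a filter, 796 without adjustment and 0 to 33 with each rabbit left out. The interaction with cell type was called in 10 genes without a filter, 0 by the quasi-likelihood test, 452 without adjustment and 1 to 5 with each rabbit left out. The median of genes lower in IEC of TSO DSS was -1.35 with thinned reads. No fold change of a named gene, median of a chosen list or mitochondrial difference that was recomputed changed its direction. The median of all genes tested, -0.02 in the main fit, was 0.0097 with stricter filtering. It was 0.0057 with the quasi-likelihood test and 0.0055 with the likelihood ratio test. The difference in the summed LPMC-enriched share, recomputed after seeing the data, was -1.26 to 6.28 percentage points with each rabbit left out.

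Same-numbered rabbits of the groups showed little joint deviation (r of -0.01, 0.08 and 0.01 across genes). In levels, TSO DSS rabbit 2 had its highest correlation with Veh DSS rabbit 2 (Pearson's r 0.961). Whether same-numbered rabbits share a factor was not tested. With the replicate block the count was 0, with 83 genes higher and 539 lower before adjustment, and the block by rabbit gave 0 genes for the interaction with cell type. The shallowest library had 3685511 reads, and thinning all libraries to that depth left 104 genes higher and 623 lower before adjustment.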
